A study of Mus musculus with 8 samples.

Results

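The genes described are 10 transcription factor genes of blood cells. They are the heptad of blood stem cell factors (Gata2, Tal1, Lmo2, Lyl1, Runx1, Fli1 and Erg) and the lineage factors Gata1, Klf1 and Spi1. They were taken by name, not by a cut on their values, though earlier results of these data were known at the time. All 10 were found among the 55487 genes of each count file, and all 10 passed the filter on low counts that left 14360 genes for testing. Expression was measured by bulk RNA-seq (Smart-seq2, which amplifies full-length cDNA from small cell numbers) in sorted mouse haematopoietic stem cells (HSCs). There were 4 libraries of NTC, the non-target control, and 4 of miR652-KD, in which the microRNA miR-652 was knocked down. The labels give no strain, sex, age, sort markers or knockdown method for either group, although the series title speaks of ageing. They also do not say whether replicates were separate animals, so p-values cover the spread between these libraries only.

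The heptad factors bind together at enhancers of stem and progenitor cells, including those of one another's genes. Gata2 is a zinc finger protein that reads GATA motifs. Tal1 and Lyl1 are related basic helix-loop-helix proteins that pair with E proteins on E-boxes, and Lmo2 is an adaptor that joins them to Gata2 through Ldb1. Runx1 binds with its partner Cbfb, and Fli1 and Erg are ETS factors. Gata1 replaces Gata2 at many sites during red cell and megakaryocyte maturation, Klf1 drives globin and other erythroid genes, and Spi1 (PU.1) is the ETS factor of granulocytes, monocytes and B cells.

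The sequences that bear on the members are given first. The mature arms of miR-652, with the seed (bases 2 to 8) in capitals, are shown because they decide which transcripts the microRNA could pair with. They come from RefSeq (GRCm38.p6) and lie on the plus strand of chromosome X.
miR-652-3p, chrX:142739060-142739080: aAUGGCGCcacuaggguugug
miR-652-5p, chrX:142739020-142739043: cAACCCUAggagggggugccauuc

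In the longest annotated 3′ UTR of each member, a match to bases 2 to 8, or to bases 2 to 7 followed by A, was found for the 3p arm in 1 of 10 members and for the 5p arm in 0. Over 21007 protein-coding genes the shares were 2.4% for the 3p arm and 12.2% for the 5p arm. The 1 match was in Runx1, at base 6 after the stop codon, chr16:92605643-92605649 on the minus strand (mm10). It is shown with its flanks, the 7 paired bases in capitals.
Runx1 site, match to bases 2 to 8 of miR-652-3p: gctgaGCGCCATcgccatcg

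RefSeq promoters were matched for 7 of 10 members, with 12 promoters in all, and Lmo2, Fli1 and Spi1 had no match. The stretches below are shown for Klf1, whose level varied most, for Tal1 and Lyl1, related genes whose differences had opposite signs, and for Gata1. Each runs 5′ to 3′ and has motif matches on either strand in capitals. It is the longest part, free of annotated exon bases, of the 250 bases before a RefSeq start. The Gata1 stretch lies inside the annotated gene, which spans 7959260 to 7978071 on chromosome X.
Klf1 promoter, chr8:84901732-84901927 (+ strand): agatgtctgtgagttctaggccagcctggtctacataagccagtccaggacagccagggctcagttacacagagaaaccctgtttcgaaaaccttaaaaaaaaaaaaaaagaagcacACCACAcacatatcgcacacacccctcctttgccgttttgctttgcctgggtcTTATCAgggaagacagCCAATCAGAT
Tal1 promoter, chr4:115056176-115056425 (+ strand): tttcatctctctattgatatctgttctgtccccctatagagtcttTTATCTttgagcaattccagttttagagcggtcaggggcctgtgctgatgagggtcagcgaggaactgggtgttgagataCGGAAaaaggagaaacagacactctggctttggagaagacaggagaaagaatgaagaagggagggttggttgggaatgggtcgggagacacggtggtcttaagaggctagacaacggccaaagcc
Lyl1 promoter, chr8:84701207-84701456 (+ strand): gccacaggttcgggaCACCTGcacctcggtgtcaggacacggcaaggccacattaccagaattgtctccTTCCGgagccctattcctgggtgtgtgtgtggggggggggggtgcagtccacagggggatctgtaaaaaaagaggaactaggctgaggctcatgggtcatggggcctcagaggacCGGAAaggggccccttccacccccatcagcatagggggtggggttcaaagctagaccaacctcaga
Gata1 promoter, chrX:7967911-7968160 (- strand): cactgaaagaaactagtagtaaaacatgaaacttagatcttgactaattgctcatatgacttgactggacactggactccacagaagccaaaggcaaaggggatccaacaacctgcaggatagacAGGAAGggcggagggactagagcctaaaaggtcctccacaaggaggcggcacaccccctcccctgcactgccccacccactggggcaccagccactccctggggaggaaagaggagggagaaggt

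The motifs searched in the 250 bases before each start were of 6 kinds, on both strands. GATA stood for the letters AGATAA and also AGATAG, with TGATAA and also TGATAG counted too. E-box stood for CAGNTG, ETS for CGGAA and also AGGAAG, and RUNX for TGTGGT and also TGCGGT. KLF stood for CCACACCC and also CCACGCCC, with CCGCACCC and also CCGCGCCC counted too. The last was CCAAT. The Klf1 stretch held a GATA match 80 bases before the RefSeq start, a CCAAT match at 64, a RUNX match at 133 and an E-box match at 59, which follows the CCAAT match with no overlap and runs past the printed end. The Tal1 stretch held a GATA match at 205 and an ETS match at 125. It is 1 of 2 Tal1 promoters, and the other, at chr4:115057561-115057810, held 0 matches of the 6 kinds. The Lyl1 stretch held ETS matches at 181 and 66 and an E-box match at 235. The Gata1 stretch held an ETS match at 125.

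Of the 12 promoters of members, 3 held a GATA match, against 26.5% of 32851 RefSeq promoters. An E-box match was in 4 of 12 (44.8% of all), an ETS match in 7 (47.4%), a RUNX match in 1 (18.6%), a KLF match in 1 (12.2%) and a CCAAT match in 6 (33.8%). These matches describe the letters of these windows only.

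**Figure D1:**
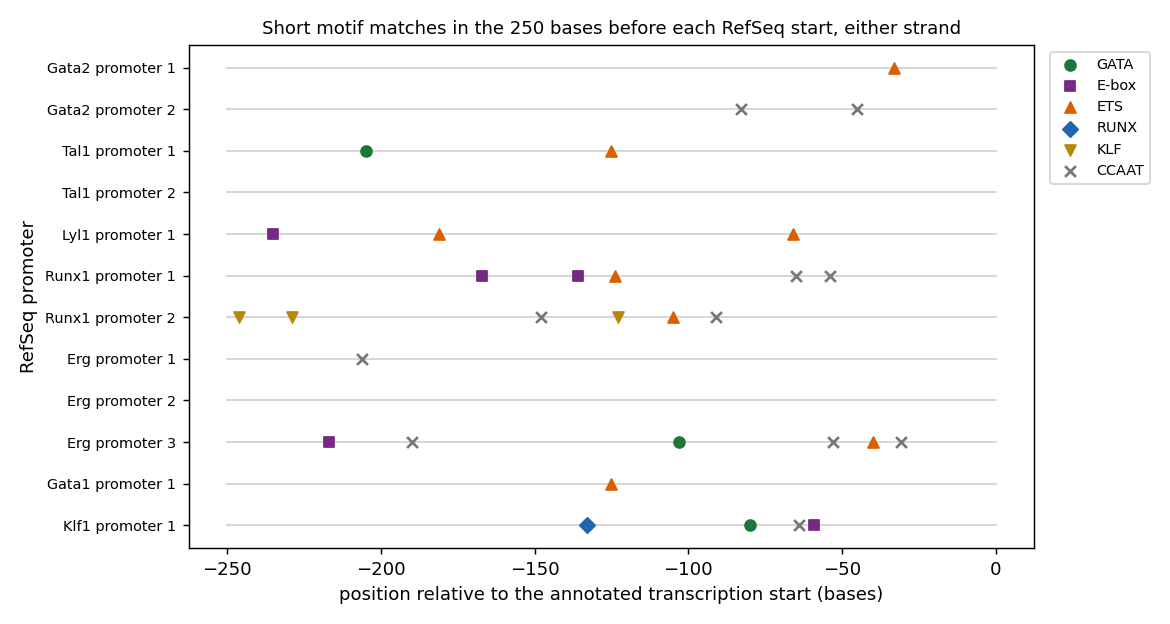
Motif matches in the 250 bases before each RefSeq start of 7 members (12 promoters, 1 per line); the x axis is the position relative to the start in bases and each symbol is 1 match. ETS matches were in 7 of 12 promoters and GATA matches in 3.

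Counts in genes ran from 14.02 to 16.76 M (mega) per NTC library and from 14.68 to 19.89 M per miR652-KD library. All 13 HSC markers listed, among them Procr, Mecom and Hlf, had counts, with summed levels of 2969.0 to 3565.4 counts per M gene counts (CPM) in NTC and 2771.3 to 3095.9 in miR652-KD. The mature microRNA is too short for this assay, so the knockdown itself is not checked here. NTC replicates 3 and 4 stood apart in neutrophil genes, with S100a9 at 775 and 1185.9 CPM against 2.15 to 11.7 CPM in the other 6 libraries. Erythroid genes, summed over 21 genes, ran from 4335.5 to 8307.8 CPM in NTC and from 1958.8 to 4893.7 CPM in miR652-KD. Car2, a carbonic anhydrase gene at 1298.4 to 2215.7 CPM in the 8 libraries, made up most of the sums of miR652-KD replicates 1 to 3. Without Car2, a choice made after its values were seen, the sums were 2552.6 to 6139.1 CPM over the NTC libraries, 199, 255 and 289.7 CPM over miR652-KD replicates 1 to 3 and 2678.1 CPM in replicate 4. In bulk libraries such as these, fewer cells of a type and less RNA per cell cannot be told apart.

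None of the 10 members was called different between NTC and miR652-KD (KD below). The test was edgeR's quasi-likelihood test with Benjamini-Hochberg adjustment over all tested genes, called below 0.05. It called 0.0418% of all tested genes (6 of 14360), and the smallest adjusted p of a member was 0.832, for Lyl1. At an unadjusted p below 0.05 there were 2 members, Lyl1 and Tal1, against 5.99% of all tested genes. DESeq2 called 0 members and 0.426% of all genes, and limma-voom also called 0 members. The groups overlapped in CPM for each of the 10 members, whereas they did not overlap for 4.5% of all tested genes. By sign, 5 members were above 0 and 5 below, with a median log2 difference of 0.00, as over all tested genes (-0.00).

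**Figure D2:**
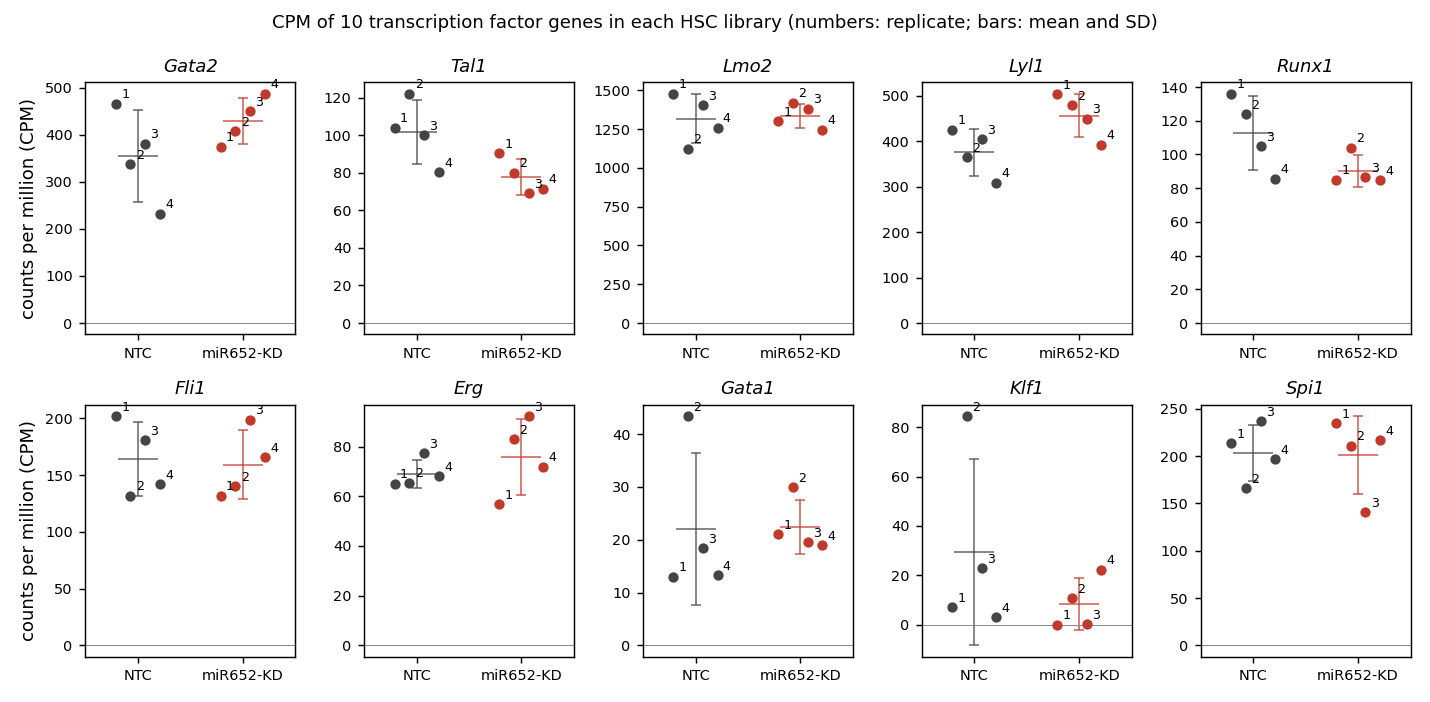
CPM of each member (y axis, from 0) in the 4 NTC and 4 KD libraries; each point is 1 library numbered by replicate, and bars give the mean and SD. Klf1 ranged from 0 to 84.5 CPM, and for each of the 10 genes the points of the groups overlap.

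Gata2 (ENSMUSG00000015053.14, chromosome 6, 88193891 to 88207032, plus strand, mm10), which keeps stem cells from maturing, stood at 466, 338, 381 and 232 CPM in NTC replicates 1 to 4. In KD replicates 1 to 4 it stood at 375, 408, 450.3 and 487 CPM. All 4 KD libraries lay above the NTC median of 359.8 CPM, but NTC replicate 1 exceeded 3 of them. The means were 355 ± 97.1 and 430.3 ± 48.8 CPM (SD, n = 4), a log2 difference of 0.29 (SE 0.18, with a 95% interval of -0.12 to 0.69, edgeR adjusted p = 0.934). NTC replicate 4, the lowest in Gata2, was the highest of all libraries in the granulocyte gene Elane, at 2534.5 CPM. In NTC replicates 2 and 3 and KD replicate 1, Elane was at 983, 1310.6 and 1919.9 CPM, with Gata2 at 338, 381 and 375 CPM. In NTC replicate 1 and KD replicates 2 to 4, Elane was at 0.471, 4.32, 0.101 and 9.87 CPM, with Gata2 at 466, 408, 450.3 and 487 CPM. The log2 difference was 0.14 without NTC replicate 4, 0.43 without NTC replicate 1 and 0.11 without NTC replicates 3 and 4. The part of granulocyte RNA in this difference was not tested.

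Tal1 (ENSMUSG00000028717.12, chromosome 4, 115056426 to 115071755, plus strand), needed for the first blood cells of the embryo, was at 104, 122, 99.9 and 80.4 CPM in NTC replicates 1 to 4. It was at 90.3, 79.9, 69.2 and 71.4 CPM in KD replicates 1 to 4. Only NTC replicate 4 fell within the range of the KD libraries. The log2 difference was -0.38 (SE 0.17, with a 95% interval of -0.75 to -0.01), with an unadjusted p of 0.0446 and an edgeR adjusted p of 0.833 (n = 4 per group).

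Lyl1 (ENSMUSG00000034041.5, chromosome 8, 84701457 to 84704715, plus strand), the close relative of Tal1 that shares much of its role in adult stem cells, differed in the opposite direction. It was at 426, 365, 405 and 309 CPM in NTC replicates 1 to 4 and at 504, 480.2, 450.3 and 393 CPM in KD replicates 1 to 4. The overlap came from KD replicate 4, which lay below NTC replicates 1 and 3. The fit gave a log2 difference of 0.29 (SE 0.12, 95% interval 0.02 to 0.55), with an unadjusted p of 0.037 and an edgeR adjusted p of 0.832 (n = 4 per group). Its exons share 4 bases with Nfix on the opposite strand.

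The log2 ratio of Tal1 to Lyl1 did not overlap between groups. It ran from -2.03 to -1.58 in NTC and from -2.70 to -2.46 in KD, with means of -1.89 ± 0.21 and -2.56 ± 0.11 (SD, n = 4), a difference of -0.66. This ratio was 1 of 5 computed between members, and over all pairs of genes with at least 5 CPM the groups did not overlap for 4.08%. It is given as a description, with no test. The ratio of Erg to Fli1 overlapped, at -1.63 to -1.02 in NTC and -1.21 to -0.76 in KD. So did the ratio of Gata1 to Gata2, at -5.15 to -2.96 and -4.67 to -3.77.

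**Figure D3:**
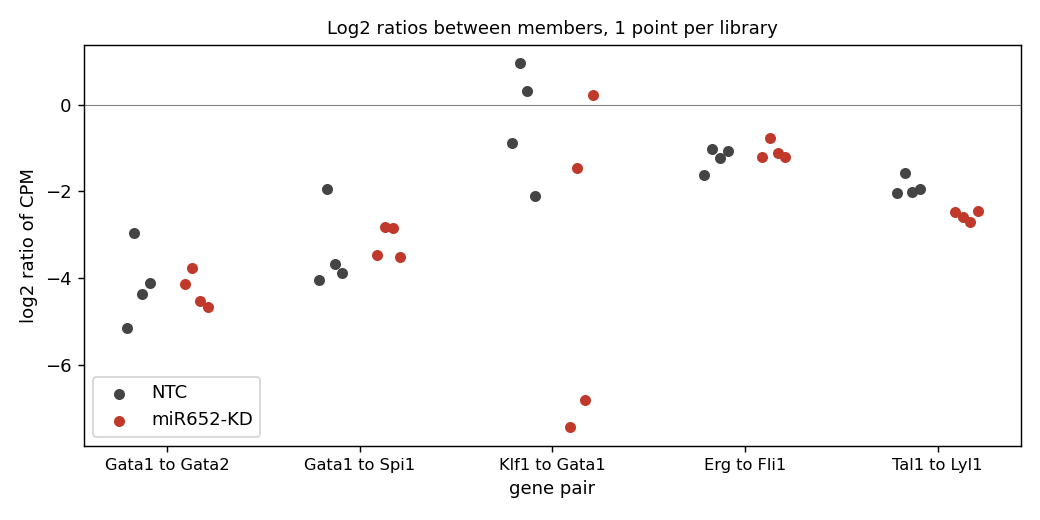
Log2 ratio of CPM (y axis) for 5 pairs of members (x axis), 1 point per library. The Tal1 to Lyl1 points of the groups are separate, and the other 4 pairs overlap; the Klf1 to Gata1 ratio spans the widest range.

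Lmo2 (ENSMUSG00000032698.15, chromosome 2, 103957986 to 103981878, plus strand), the adaptor of the complex, had the highest and steadiest level. It was at 1477.0, 1122.2, 1404.1 and 1258.2 CPM in NTC replicates 1 to 4 and at 1300.1, 1419.0, 1379.6 and 1245.5 CPM in KD replicates 1 to 4. The KD values lay inside the NTC range. The log2 difference was 0.03 (SE 0.09), and its 95% interval of -0.16 to 0.22 was the narrowest of the 10 members (edgeR adjusted p = 0.999).

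Of the 19 listed protein partners of the heptad (bridging, dimer and corepressor proteins), all were tested, 7 lay above 0 and 12 below. By edgeR 0 passed, with 2 of 19 at an unadjusted p below 0.05, against 5.99% of all tested genes. DESeq2 called 0 of them too, and limma-voom called 0 genes of any list described here. Their median log2 difference was -0.09, against -0.00 for all tested genes, and it was -0.00 without NTC replicate 1 and -0.22 without NTC replicates 3 and 4. Ldb1, which dimerises to bridge Lmo2 complexes, ranged over 64.3 to 96.9 CPM in NTC and 66.1 to 85.9 CPM in KD, with overlap. Those of smallest p were Ssbp4, which stabilises Ldb1 (0.31), the E protein gene Tcf12 (-0.49), Cbfb (-0.28) and the acetyltransferase gene Crebbp (-0.25). Their groups overlapped in each case, and their edgeR adjusted p ran from 0.814 to 0.895.

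Runx1 (ENSMUSG00000022952.17, chromosome 16, 92601466 to 92826149, minus strand), required for stem cells to arise, was at 136, 124, 105 and 85.5 CPM in NTC replicates 1 to 4. It was at 85, 104, 86.6 and 84.7 CPM in KD replicates 1 to 4. Of the KD libraries 3 lay close together at the low end of NTC, and replicate 2 stood above them. KD minus NTC gave a log2 difference of -0.32 (SE 0.16, with a 95% interval of -0.68 to 0.04, edgeR adjusted p = 0.869). Runx1 values in KD were all below the NTC median of 114 CPM. Runx1 is also the member with the seed match printed above, and whether that match bears on its level was not tested. Its partner gene Cbfb stood at 103 ± 11.7 CPM in NTC and 84.2 ± 12.2 CPM in KD (SD, n = 4), also with overlap. Counts per gene do not separate transcripts from the 2 Runx1 promoters.

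Without NTC replicates 3 and 4, the libraries highest in the neutrophil gene S100a9, the groups no longer overlapped for Tal1 and Runx1. That is a count of 2 of 10 members. The share over all tested genes then was 15.5%. The log2 differences in that setting were -0.53 for Tal1 and -0.52 for Runx1, and 0 members were called by edgeR.

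Fli1 (ENSMUSG00000016087.13, chromosome 9, 32422204 to 32542861, minus strand), an ETS factor also needed for platelets, was at 202, 132, 181 and 142 CPM in NTC replicates 1 to 4. It was at 132, 140.1, 199 and 166 CPM in KD replicates 1 to 4. The groups covered nearly the same range, with a log2 difference of -0.04 (SE 0.17, with a 95% interval of -0.42 to 0.33, edgeR adjusted p = 0.999).

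Erg (ENSMUSG00000040732.20, chromosome 16, 95359169 to 95586593, minus strand), which maintains adult stem cells, was at 65.1, 65.5, 77.4 and 68.1 CPM in NTC replicates 1 to 4. It was at 56.8, 82.9, 92.2 and 71.8 CPM in KD replicates 1 to 4. The lowest and the 2 highest values were all KD libraries. On the log2 scale KD minus NTC was 0.14 (SE 0.17, with a 95% interval of -0.25 to 0.53, edgeR adjusted p = 0.996).

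Erg, Fli1 and Tal1 are also genes of endothelium. The vascular cadherin gene Cdh5 had 0 counts in all 8 libraries, which allows at most 0.151 to 0.214 CPM per library (3 counts). Of 14 endothelial and stromal genes 5 were at 0 throughout. The list summed to 270 to 475 CPM in NTC and 222 to 309 CPM in KD, with Tie1 and Tek, which stem cells also express, among its higher members. Emcn and Pecam1 were also among them, at 28.6 to 85.8 and 24.9 to 67.1 CPM over the 8 libraries. Of 8 tested 1 was above 0 and 7 below, with a median of -0.59. By edgeR and by DESeq2 0 passed, with 1 at an unadjusted p below 0.05 in edgeR, against 5.99% of all tested genes. That gene, Pdgfrb, had -1.99 with overlap (edgeR adjusted p = 0.826). Emcn had -0.63 and Pecam1 -0.55, both with overlap.

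Gata1 (ENSMUSG00000031162.14, chromosome X, 7959260 to 7978071, minus strand), the red cell and megakaryocyte factor, was low. It was at 13, 43.4, 18.4 and 13.3 CPM in NTC replicates 1 to 4 and at 21.1, 29.9, 19.5 and 19 CPM in KD replicates 1 to 4. NTC replicate 2 was the highest library and the other 3 NTC libraries the lowest. The log2 difference was 0.02 (SE 0.42, 95% interval -0.92 to 0.96, edgeR adjusted p = 0.999), and 0.60 without NTC replicate 2.

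Klf1 (ENSMUSG00000054191.8, chromosome 8, 84901928 to 84905291, plus strand), the erythroid factor, varied more than any other member. It was at 6.93, 84.5, 22.8 and 3.01 CPM in NTC replicates 1 to 4 (103, 1184, 382 and 44 counts). In KD replicates 1 to 4 it was at 0, 10.7, 0.0503 and 22.3 CPM (0, 176, 1 and 386 counts). A count of 0 allows up to 0.204 CPM in KD replicate 1, for counting error only. High and low libraries occurred in both groups. The fitted log2 difference was -1.84 (SE 1.52, 95% interval -5.24 to 1.56, edgeR adjusted p = 0.989). It was -0.38 without NTC replicate 2 and -3.05 without KD replicate 4, so its size rested on single libraries.

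Erythroid genes were read beside these 2 factors. NTC replicate 2, highest in Klf1 and Gata1, held Car1, a carbonic anhydrase of early red cells, at 387 CPM against at most 9 CPM elsewhere. NTC replicates 2 and 3 and KD replicate 4, the 3 libraries with most Klf1, also held Slc4a1 (band 3 of the red cell membrane) at 59.1, 58.3 and 33.9 CPM, against at most 5.74 CPM in the other 5. The blood group gene Rhd stood at 52.6, 40.1 and 72.2 CPM in those 3 and at most 0.0608 CPM elsewhere. Slc4a1 and Rhd were chosen after their values were seen.

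Haemoglobin did not follow Klf1 in the same way. NTC replicates 1 and 4 held Hba-a1 at 1013.1 and 2297.6 CPM, where Klf1 was at 6.93 and 3.01 CPM. In KD replicate 2 Klf1 was higher, at 10.7 CPM, and Hba-a1 was at 37.1 CPM. Of 20 tested erythroid genes 18 were below 0 and 2 above, with a median of -2.41. By edgeR 0 passed, with 2 of 20 at an unadjusted p below 0.05, against 5.99% of all tested genes. Those 2 were Alas2, the erythroid enzyme of haem synthesis (-2.88, adjusted p = 0.589), and Hbb-bt (-2.68, adjusted p = 0.721). The groups did not overlap for these 2 of 20, against 4.5% of all tested genes. DESeq2 called 1 of 20, Alas2 (adjusted p = 0.000653), against 0.426% of all genes. The erythroid median was -1.24 without NTC replicate 2 and -3.76 without KD replicate 4. The part of red cell RNA in the Klf1 values was not tested.

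Spi1 (ENSMUSG00000002111.8, chromosome 2, 91082390 to 91115756, plus strand) was at 214, 166, 237 and 197 CPM in NTC replicates 1 to 4. It was at 235, 211, 141 and 217 CPM in KD replicates 1 to 4. The lowest value was KD replicate 3 and the others lay within the NTC range. The groups differed by -0.01 log2 (SE 0.17, with a 95% interval of -0.39 to 0.37, edgeR adjusted p = 0.999). Spi1 kept within 1.68-fold between its lowest and highest library. Elane, a granule protease gene, ranged from 0.101 CPM in KD replicate 3 to 2534.5 CPM in NTC replicate 4, and was at 0.471 CPM in NTC replicate 1, where Spi1 was at 214 CPM.

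**Figure D4:**
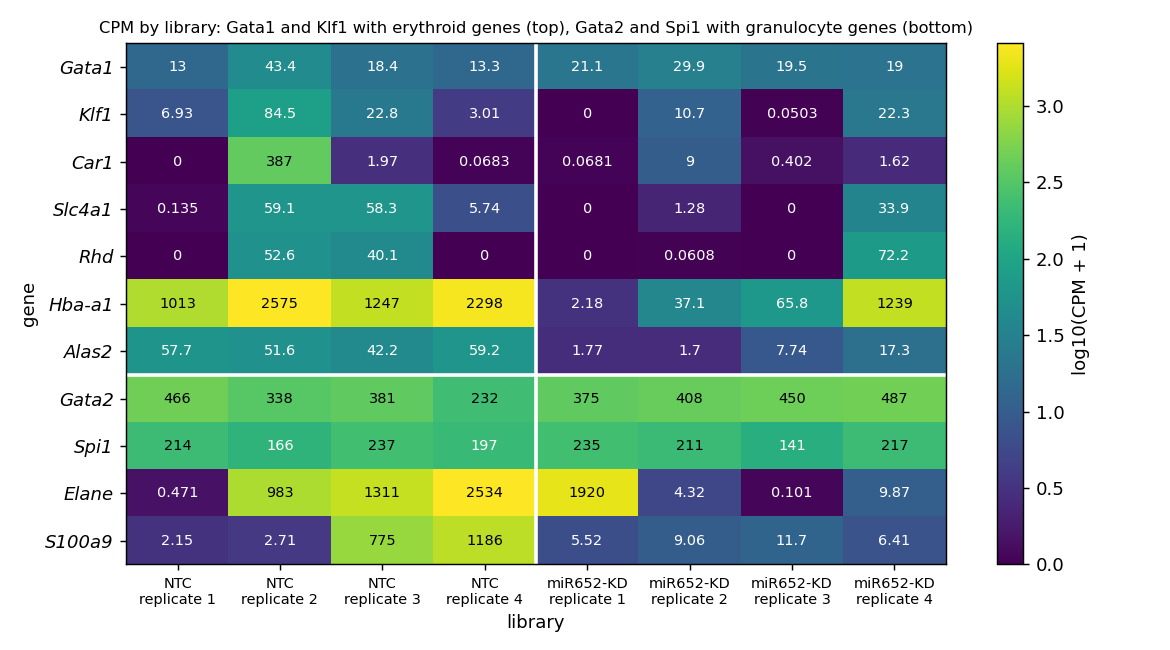
CPM by library (columns) of Gata1 and Klf1 with 5 erythroid genes (upper rows) and of Gata2 and Spi1 with 2 granulocyte genes (lower rows); colour is log10(CPM + 1) and the printed number is CPM. Klf1, Slc4a1 and Rhd are high in NTC replicates 2 and 3 and KD replicate 4, and Spi1 stays between 141 and 237 CPM while Elane spans 0.101 to 2534.5 CPM.

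The granulocyte and monocyte list had 17 tested genes, 16 of them with values below 0 and a median of -1.08. By edgeR 0 passed, with 5 at an unadjusted p below 0.05 (5.99% of all tested genes). DESeq2 called 4 of 17, Csf3r, Ngp, S100a8 and S100a9, with adjusted p from 0.0297 to 0.0426, against 0.426% of all genes. Of these, Ngp, S100a8 and S100a9 were high in NTC replicates 3 and 4 alone. Ngp was at 2413.1 and 3622.7 CPM there and at most 24.7 CPM elsewhere. The median rested on single libraries: it was -0.63 without NTC replicate 4, -2.78 without KD replicate 1 and 0.14 without NTC replicates 3 and 4. The Spi1 target Csf3r, the G-CSF receptor gene, stood at 165 ± 38.5 CPM in NTC and 92.4 ± 22.5 CPM in KD (SD, n = 4), a log2 difference of -0.84 with overlap (adjusted p = 0.598). Macrophage and dendritic genes split evenly, 4 of 8 tested on each side of 0, with a median of -0.24 that was 0.45 without NTC replicate 4, 0.04 without KD replicate 3 and 0.74 without NTC replicates 3 and 4. By edgeR and by DESeq2 0 passed, with 1 of 8 at an unadjusted p below 0.05 in edgeR, against 5.99% of all tested genes. That gene, Cd68, a lysosomal protein of macrophages, had 0.99 (adjusted p = 0.681). It was the 1 of 8 without overlap, against 4.5% of all tested genes. Of 22 further blood transcription factor genes tested, 8 lay above 0 and 14 below, with a median of -0.12 (-0.05 without NTC replicate 2). The edgeR and DESeq2 tests called 0, with 2 of 22 at an unadjusted p below 0.05 in edgeR, against 5.99% of all tested genes. Irf8, which works with Spi1 in monocytes, had the smallest p of these. It was at 8.47, 10.6, 12.9 and 1.71 CPM in NTC replicates 1 to 4 and at 55.5, 29.3, 7.64 and 64 CPM in KD replicates 1 to 4, a log2 difference of 2.22 with overlap (adjusted p = 0.779). Mecom, a stem cell zinc finger factor, had -0.33, Myb -0.23 and Elf1 -0.24. Myb was the 1 of 22 without overlap, against 4.5% of all tested genes.

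**Figure D5:**
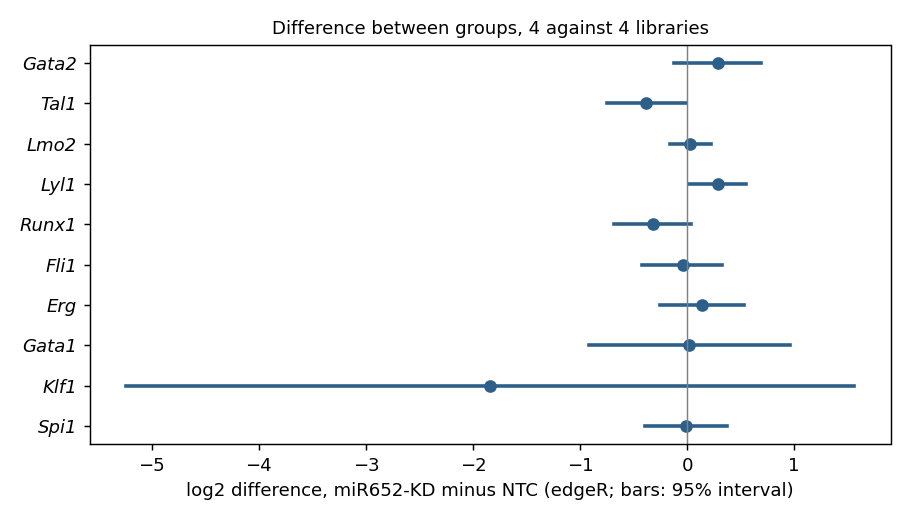
Log2 difference of each member, KD minus NTC (x axis), with its 95% interval from edgeR over 4 against 4 libraries. The intervals of Tal1 (-0.75 to -0.01) and Lyl1 (0.02 to 0.55) do not reach 0 before adjustment over all genes; Klf1 has the widest, from -5.24 to 1.56.

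The intervals bound what these libraries could show. For Lmo2, Fli1, Spi1, Erg, Lyl1, Gata2, Tal1 and Runx1 all bounds lay between -0.75 and 0.69, so changes of 2-fold (a log2 difference of 1) lay outside the intervals. For Gata1 the bounds were -0.92 and 0.96, and for Klf1 they reached far beyond. A p above the threshold does not show that the levels were equal.

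Levels between genes were compared per length of annotated exon, as CPM per kb. Lmo2 was highest, at 607 ± 72.8 in NTC and 617 ± 36 in KD (SD, n = 4), and the lowest Lmo2 library (518) lay above the highest of Lyl1 (279.8). Lyl1 came next at 209 ± 28.8 and 254 ± 26.5, also without overlap with the gene that followed. Spi1 (75.6 ± 11 and 74.6 ± 15.4), Gata2 (65.7 ± 18 and 79.7 ± 9.04) and Fli1 (47.2 ± 9.42 and 45.6 ± 8.63) formed a run in which neighbours overlapped. Erg (19.9 ± 1.66 and 21.9 ± 4.39) and Tal1 (23.2 ± 3.87 and 17.7 ± 2.19) lay below Fli1 without overlap and were not separated from each other. Gata1 (9.03 ± 5.93 and 9.17 ± 2.08) and Runx1 (9.37 ± 1.84 and 7.49 ± 0.787) were low in both groups. Klf1 was at 19.1 ± 24.7 in NTC and 5.4 ± 6.94 in KD, the lowest mean of the 10 members in KD but not in NTC, and spread from 0 to 55.2. The exon length of Runx1, 12025 bases over all its transcripts, is the longest of the 10 and lowers its value where most transcripts are shorter.

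The heptad genes varied little between libraries of one group. The within-group SD of log2 CPM was 0.12 for Lmo2, 0.18 for Lyl1, 0.22 for Tal1, Runx1 and Erg, 0.26 for Fli1 and 0.31 for Gata2. The median over 11230 tested genes with at least 5 CPM was 0.40. Lmo2 stood at percentile 2.1 of these genes and Gata2 at percentile 34.5. Among the lineage factors, Spi1 had an SD of 0.28, Gata1 0.62 and Klf1 3.14, at percentiles 29.1, 75.0 and 99.6. High counts lower the sampling part of this SD, and the reference genes include less abundant ones.

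Genes with the most similar course over the 8 libraries were sought among 10121 protein-coding genes. The measure was the mean absolute difference in log2 CPM after centring each gene on its own mean. The nearest were Dlat, Cyb5r3 and F8a for Gata2 (0.08 to 0.10), Pfas, Csnk1e and Zfp91 for Tal1 (0.08 to 0.10) and Bax, Eif3i and Mcmbp for Lyl1 (0.08 to 0.09). Mcfd2, Ccdc107 and Sf3b3 were nearest to Lmo2 (0.05 each), and Alg1, Muc13 and Chd4 to Runx1 (0.07 to 0.10). Kmt2e, Cldn12 and Smarca2 were nearest to Fli1 (0.06 to 0.08), Gemin7, Ndufb11 and Hax1 to Erg (0.06 to 0.07), and Cyld, Rps6ka1 and Manbal to Spi1 (0.07 to 0.09). For Gata1, Orc5, Trak2 and B4galnt4 were nearest but farther away (0.19 to 0.20). For Klf1 even the nearest genes, Ccdc102a, Robo3 and Gpt, differed by 1.30 to 1.44.

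Among the members themselves, Tal1 and Runx1 were nearest to each other (0.15), as were Lmo2 and Lyl1 (0.14). Fli1 was nearest to Erg (0.17), and Gata2 to Lyl1 (0.19). The nearest member to Klf1, Runx1, differed by 2.47. With 8 libraries and many genes, close courses are common, and these values are descriptions.

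Paralogues of the members were read for comparison. Of 20 listed, 6 had no count in any library: Gata4, Gata6, Tal2, Lmo3, Fev and Spib. Gata3, best known from T cells, ranged over 53.4 to 116 CPM in NTC and 70.8 to 131 CPM in KD. Of the T cell genes, Cd3e, Cd3g and Cd8a had 0 counts throughout, while Cd3d had 1 and Cd4 had 17 over the 8 libraries. Nkg7, also on the lymphoid list, ranged over 119.9 to 457 CPM. The source of Gata3 RNA was not tested. Of 13 tested paralogues 4 lay above 0 and 9 below, with a median of -0.20, and -0.34 to -0.10 on leaving out single libraries. By edgeR 0 passed, with 5 at an unadjusted p below 0.05 and 2 without overlap, against 5.99% and 4.5% of all tested genes. DESeq2 called 1 of 13, Klf3 (adjusted p = 0.0421), against 0.426% of all genes. Klf3, a repressor that competes with Klf1 for its motif, was at 66, 69.3, 51.7 and 57.8 CPM in NTC replicates 1 to 4 and at 29, 37, 30.6 and 38.7 CPM in KD replicates 1 to 4. Its groups did not overlap, with a fitted log2 value of -0.85 (SE 0.19, adjusted p = 0.47 by edgeR). Klf13 had 0.28 without overlap (adjusted p = 0.779), Runx3 -0.34 and Ets2 -0.67, the latter both with overlap.

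Among genes widely described as heptad targets, Cd34 was called lower in KD by DESeq2 but not by edgeR. The surface marker gene Cd34 was at 512, 517, 506 and 521 CPM in NTC replicates 1 to 4 and at 326, 342, 253 and 329 CPM in KD replicates 1 to 4. The 4 KD libraries lay well below the closely grouped NTC libraries. The edgeR fit gave -0.71 on the log2 scale (SE 0.11, adjusted p = 0.125), and DESeq2 -0.72 (SE 0.11, adjusted p = 6.47e-07). Of 19 targets tested, 6 lay above 0 and 13 below, with a median of -0.16, and -0.18 to -0.08 on leaving out single libraries. By edgeR 0 passed and by DESeq2 1 of 19, against 0.426% of all genes in DESeq2. At an unadjusted p below 0.05 in edgeR there were 3 of 19, against 5.99% of all tested genes. The groups did not overlap for 4 of 19, against 4.5% of all tested genes, and those 4 were Cd34, Kit, Pim1 and Myb. Kit, the stem cell factor receptor gene, was at 664, 482, 485 and 440.0 CPM in NTC replicates 1 to 4 and at 380.0, 435, 402 and 416 CPM in KD replicates 1 to 4, which gave -0.34 on the log2 scale (SE 0.12, adjusted p = 0.782 by edgeR). Pim1, a survival kinase gene, had -0.37 (adjusted p = 0.826). The platelet integrin gene Itga2b had -0.79 with overlap (adjusted p = 0.846).

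Of the 13 HSC markers, which share several genes with that list, 5 lay above 0 and 8 below, with a median of -0.08, and -0.15 to 0.00 on leaving out single libraries. By edgeR 0 passed, with 5 of 13 at an unadjusted p below 0.05 and 3 without overlap, against 5.99% and 4.5% of all tested genes. DESeq2 called 2 of 13, Cd34 (adjusted p = 6.47e-07) and Ly6a (adjusted p = 0.0221), against 0.426% of all genes. In edgeR Ly6a (Sca-1) had 0.62 without overlap (adjusted p = 0.598) and Hoxb5 1.04 with overlap (adjusted p = 0.801). Megakaryocyte genes, which Gata1, Fli1 and Runx1 control in that lineage, were above 0 for 7 of 13 tested, with a median of 0.12. That median was 0.00 without NTC replicate 1, -0.09 without NTC replicate 4, -0.02 and -0.04 without KD replicates 1 and 3, and -0.07 without NTC replicates 3 and 4. By edgeR 0 passed, with 2 of 13 at an unadjusted p below 0.05, against 5.99% of all tested genes. DESeq2 called 1 of 13, Itgb3, against 0.426% of all genes. The integrin gene Itgb3 had -0.92 without overlap (edgeR adjusted p = 0.47, DESeq2 adjusted p = 0.0297), and Vwf 0.53 and Pf4 0.42 with overlap. Lack of overlap held for 1 of 13, against 4.5% of all tested genes. Mast cell genes were read because mast cells hold much Gata2. Of 12 listed 5 had no count in any library and 4 were tested, with a median of -0.96 (0.59 without NTC replicates 3 and 4). The edgeR and DESeq2 tests called 0, with 1 of 4 at an unadjusted p below 0.05 in edgeR, against 5.99% of all tested genes. That gene, Cpa3, a mast cell protease, had -1.95 (adjusted p = 0.721), at 12.2 to 33.7 CPM in NTC and 2.16 to 8.45 CPM in KD. It was the 1 of 4 without overlap, against 4.5% of all tested genes. Of 5 tested lymphoid genes 2 lay above 0 and 3 below, with a median of -0.10. That median was 0.19 without NTC replicate 2, 0.11 without NTC replicate 4 and -0.32 without NTC replicates 3 and 4. By edgeR and by DESeq2 0 passed, with 1 of 5, the cytotoxic granule gene Nkg7, at an unadjusted p below 0.05 in edgeR, against 5.99% of all tested genes.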

How the data were processed

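The authors deposited raw read counts per gene for 8 libraries; per the submitters' processing notes HISAT2 2.1.0, HTSeq 0.11.2 and the mm10 build were used, while no annotation release or strand setting is given in the sources used here. The 5 HTSeq summary lines were left out of totals and tests. Reads outside genes were 9.69% to 16.94% and ambiguous reads 8.94% to 12.28% of each file. NTC replicate 1 held both the 16.94% and the 8.94%, and the next highest share outside genes was 11.35%, in NTC replicate 4. Of 55487 gene identifiers, 55394 were matched without version to GENCODE M21, the source of coordinates, exon lengths and 3′ UTRs. CPM are counts per M (mega) counts in genes. Testing used edgeR 4.0.16 under R 4.3.3, TMM factors, filterByExpr (minimum count 10, total 15) and robust quasi-likelihood fits. P-values were adjusted over all 14360 genes, and log2 CPM used a prior count of 2. Alternatives were DESeq2 1.42.0, limma-voom (limma 3.58.1), other scalings and filters, fits without the robust option, a block for replicate number, and fits without each library or without NTC replicates 3 and 4. On data simulated for this comparison (13672 genes), 26% of 2-fold and 67% of 4-fold changes were recovered. Smart-seq2 has no molecular identifiers, so limits from counts cover counting error only. The members and lists were chosen with earlier results of these data known. All members were named. Of each other list, the naming rule picked the genes past the threshold and up to 4 of smallest p. For likeness it picked the 3 nearest genes with at least 5 CPM. Not all genes picked from the lists are named in the text, and others, such as Ldb1, Gata3, Tie1 and Procr, were named outside the rule. Motifs were sought in RefSeq promoters (GRCm38.p6).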

Additional observations from a re-analysis of the deposited data

Results flagged for a closer look

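Groups of 4 libraries were checked for 58 genes: the members, those picked by the naming rule and preset markers of other cell types. In 12 of 114 groups, 1 library lay far from the other 3 by Dixon's ratio, which chance gives in about 1 of 20 groups. Among members this held for Runx1 alone, at 104 CPM in miR652-KD replicate 2 against 84.7 to 86.6 CPM in the other 3. In miR652-KD replicate 4, Hba-a1 was at 1238.6 CPM (others 2.18 to 65.8), Hba-a2 at 177 (0.954 to 15.5) and Hbb-bt at 124 (10.0 to 23.8). That library was lowest in Pim1, at 113 CPM against 175 to 183 CPM. Car1 was at 387 CPM in NTC replicate 2 (others 0 to 1.97). Elane was at 1919.9 CPM in miR652-KD replicate 1 (0.101 to 9.87), and Hdc at 19.1 CPM there (0 to 2.25). In miR652-KD replicate 2, Ngp was at 24.7 CPM (3.12 to 4.77) and Mcpt8 at 16.4 CPM (0 to 2.19). Hoxb5 was lowest in miR652-KD replicate 3, at 9.05 CPM against 24.3 to 25.3 CPM, and Cd79b highest in NTC replicate 4, at 78.4 CPM against 48.6 to 50.2 CPM.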

How the results depend on the processing

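Under every alternative run, 0 members were called, with adjusted p of at least 0.507. Over all genes 6 were called; DESeq2 called 61, and 0 were called in each fit without 1 library (lowest and highest 0, with 789 to 992 at an unadjusted p below 0.05 in edgeR) or without NTC replicates 3 and 4 (884 unadjusted). DESeq2 called 1 paralogue (Klf3), 1 heptad target (Cd34), 2 HSC markers (Cd34 and Ly6a), 1 erythroid gene (Alas2), 4 granulocyte genes (Csf3r, Ngp, S100a8 and S100a9) and 1 megakaryocyte gene (Itgb3), where edgeR called 0; the cause was not tested. Of 180 log2 differences of members under alternatives, 16 changed sign, all of Lmo2, Fli1, Gata1 and Spi1, whose main values lie near 0. Leaving out 1 library gave -0.03 to 0.07 for Lmo2, -0.16 to 0.06 for Fli1, -0.18 to 0.60 for Gata1 and -0.10 to 0.13 for Spi1. Spi1 was at 0.01 with upper-quartile scaling and with limma-voom, and without NTC replicates 3 and 4 Spi1 was at 0.09 and Gata1 at -0.34. Leaving out 1 library kept the sign of Gata2 (0.14 to 0.43), Tal1 (-0.47 to -0.26), Lyl1 (0.21 to 0.35), Runx1 (-0.42 to -0.23), Erg (0.04 to 0.26) and Klf1 (-3.05 to -0.38). Members without overlap between groups were 0 with TMM-scaled CPM too, and 2 without NTC replicates 3 and 4, where fewer samples enter. Same-numbered libraries did not deviate together over all genes (correlations of -0.11 to -0.03 over 11228 genes). The labels do not say whether the numbers mark pairs, so a shared preparation remains unknown. With the replicate block edgeR called 0 genes (733 unadjusted), and Klf1 had -3.83, Tal1 -0.37 and Lyl1 0.29. Depth limits Klf1 and other genes near 0 counts; heptad genes had at least 834 counts in every library.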
